A study of Homo sapiens with 12 samples.

Results

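The genes described here are the 37 genes of the human mitochondrial genome, taken as every gene of the expression table whose symbol starts with MT-, out of 60664 gene identifiers. They comprise 13 protein-coding genes, 2 ribosomal RNA (rRNA) genes and 22 transfer RNA (tRNA) genes. Expression was measured by RNA sequencing in 12 libraries of the human hepatoma lines Huh-7 and MHCC-97H. Cells of each line, labelled wild type and grown in DMEM with fetal bovine serum, were transfected with si-CENPU, a small interfering RNA against the kinetochore gene CENPU, or with the control si-NC. The 4 groups are Huh-7 si-NC, Huh-7 si-CENPU, MHCC-97H si-NC and MHCC-97H si-CENPU, with 3 libraries in each. The labels give no time after transfection, and they do not tell whether libraries of 1 group are separate cultures, so the spread behind each p-value may be technical.

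The mitochondrial genome is a small circular DNA present in many copies per cell. Both strands are transcribed from end to end into long precursors, and enzymes cut these at the tRNAs that lie between most genes to release the separate mRNAs and rRNAs. The proteins all belong to the respiratory chain and ATP synthase: the ND subunits to complex I, cytochrome b to complex III, the 3 CO subunits to complex IV and ATP6 and ATP8 to complex V. Every other subunit, and every protein that copies, transcribes and translates this genome, is encoded in the nucleus.

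Transcript abundance was given as TPM, a unit scaled for transcript length and for the total of the library, which puts genes of different length on 1 scale. MT-ND6 is the only mRNA annotated on the minus strand in GENCODE release 29 (GRCh38), at chrM:14149-14673. TPM keeps no sequencing depth, so no counting interval can be given, and an exact 0 can be a failed estimate.

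Some members share bases with each other. MT-ATP8 (chrM:8366-8572) and MT-ATP6 (chrM:8527-9207) are read in different frames from 1 mRNA and share 46 bases, which is 22.2% of the length of MT-ATP8. MT-ND4L (chrM:10470-10766) and MT-ND4 (chrM:10760-12137) share 7 bases. The annotated sequences around both overlaps are given on the plus strand because reads that fall there cannot be assigned to 1 gene. Capitals mark the shared bases.
MT-ATP8/MT-ATP6: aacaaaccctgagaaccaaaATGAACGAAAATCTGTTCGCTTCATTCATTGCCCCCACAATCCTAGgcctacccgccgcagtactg
MT-ND4L/MT-ND4: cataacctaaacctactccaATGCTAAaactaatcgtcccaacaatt

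Other members have near-identical copies in the nuclear genome. A cluster on chromosome 1, between positions 629062 and 634922, holds stretches that match MT-ND1, MT-ND2, MT-CO1, MT-CO2, MT-ATP8, MT-ATP6 and MT-CO3, each annotated as a pseudogene. The copy of MT-CO1, MTCO1P12, was 98.6% identical to it, with a longest unbroken match of 245 bases. The copy of MT-ATP6, MTATP6P1, was 98.5% identical, with a longest match of 141 bases. The copy of part of MT-ND1, MTND1P23, was 99.2% identical over 352 bases, with a longest match of 158 bases. For these 3 pairs the 90-base window of the match with the most differences is shown. Within the match, it is the part in which a read is easiest to place. Capitals mark the bases that differ.
MT-CO1 (chrM:6210-6299): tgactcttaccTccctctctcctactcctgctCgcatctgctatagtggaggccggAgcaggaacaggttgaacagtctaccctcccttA
MTCO1P12 (chr1:631380-631469): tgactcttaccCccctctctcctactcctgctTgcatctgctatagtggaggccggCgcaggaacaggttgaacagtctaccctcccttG
MT-ATP6 (chrM:8629-8718): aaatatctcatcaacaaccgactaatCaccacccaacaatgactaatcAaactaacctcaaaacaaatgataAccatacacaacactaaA
MTATP6P1 (chr1:633798-633887): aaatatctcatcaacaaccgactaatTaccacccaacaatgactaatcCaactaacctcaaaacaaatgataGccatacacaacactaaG
MT-ND1 (chrM:4015-4104): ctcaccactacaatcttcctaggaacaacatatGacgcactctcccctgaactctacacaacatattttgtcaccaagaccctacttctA
MTND1P23 (chr1:629185-629274): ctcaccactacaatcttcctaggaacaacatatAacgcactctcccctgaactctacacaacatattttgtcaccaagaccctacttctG
Even in these windows 4, 4 and 2 bases differ. The sources used here do not say how reads that match both a member and its copy were counted.

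Libraries differed in ways that the groups do not explain. Huh-7 si-NC replicate 1 had a mean correlation of 0.965 with the other libraries of its line, against 0.975 to 0.978 for the rest of Huh-7. It held the lowest value of all 6 Huh-7 libraries for each of the 12 members that were measured well above 0 in both lines, at a median of 57.0% of the line's median, and Huh-7 si-CENPU replicate 2 stood at 75.6%. In MHCC-97H, si-NC replicate 1 was highest for 11 of the 12 and si-NC replicate 3 was lowest for 10, at 79.9%. In some libraries, deviations from the mean of the line also followed transcript GC content, as a rank correlation over 10970 genes. The correlation was 0.33 in Huh-7 si-NC replicate 1, where members were lowest. It was -0.52 and 0.46 in the MHCC-97H controls with the highest and lowest members, replicates 1 and 3. Over the other 9 libraries it ran from -0.32 in Huh-7 si-NC replicate 2, where members were high, to 0.30 in MHCC-97H si-CENPU replicate 3. It was near 0 in Huh-7 si-NC replicate 3 (-0.0098) and Huh-7 si-CENPU replicate 1 (-0.014). The same held for MHCC-97H si-CENPU replicates 1 and 2 (0.0485 and 0.0525). In Huh-7 si-CENPU replicate 3 it was -0.22, with members at 97.1% of the line's median. Mitochondrial mRNAs have 39.6% to 47.7% GC, and the part of GC content in their levels was not tested. CENPU itself ran from 0.53 to 1.17 TPM over the 6 controls and from 0.11 to 0.45 over the 6 libraries with si-CENPU. Of 10 hepatocyte and hepatoma markers, 9 averaged at least 1 TPM in Huh-7 (summed 6652 to 7576 TPM) and 0 did in MHCC-97H (summed 0.68 to 2.60 TPM), where ALB stood at 0 to 0.03 TPM and AFP at 0 to 0.13, so these markers of the labelled cell type were at or near 0 in that line. Markers of leukocytes, endothelium and fibroblasts summed to between 54.0 and 78.1 TPM in Huh-7 and between 16.8 and 21.0 in MHCC-97H. Of 9 such markers in the table, 3 averaged at least 1 TPM in Huh-7. With si-NC these were CD68 (38.1 TPM, against 17.9 in MHCC-97H), LYZ (18.7 against 0.01) and COL3A1 (5.70 against 0.007). VWF and COL1A1 went the other way, at 0.07 and 0.08 TPM in Huh-7 si-NC against 0.44 and 0.89 in MHCC-97H si-NC.

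All 13 mRNAs and both rRNAs had a mean of at least 1 TPM over the 12 libraries, and the 22 tRNAs were listed at 0 in all 12. Together the members took 1.56% to 3.50% of the TPM of a Huh-7 si-NC library, with a mean of 2.74% ± 1.03 (SD, n = 3), and 2.78% ± 0.454 in Huh-7 si-CENPU. They took 5.46% ± 0.961 in MHCC-97H si-NC and 5.35% ± 0.388 in MHCC-97H si-CENPU. The ranges of the lines did not overlap, and those of si-NC and si-CENPU overlapped within each line. In bulk RNA, fewer mitochondria-rich cells and less mitochondrial RNA per cell cannot be told apart.

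Most of the gap between the lines came from MT-CO1, MT-CO2 and MT-CO3, which took 1.98% ± 0.362 of TPM in MHCC-97H si-NC and 1.91% ± 0.137 in MHCC-97H si-CENPU. These genes were listed at or near 0 in Huh-7, which can be a failed estimate. The total share in Huh-7 and the gap between the lines carry that limit. Without them the share was 2.74% ± 1.03 and 2.78% ± 0.454 in Huh-7, and 3.48% ± 0.599 and 3.45% ± 0.254 in MHCC-97H. The difference between lines then shrank from 2.72 to 0.741 percentage points with si-NC and from 2.58 to 0.670 with si-CENPU. With si-NC the ranges overlapped without these 3 genes, at 1.56% to 3.50% against 2.83% to 4.01%, and with si-CENPU they did not, at 2.28% to 3.18% against 3.20% to 3.70%. The group means of the 7 complex I mRNAs lay between 1.41% ± 0.123 and 1.55% ± 0.200 of TPM.

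**Figure D1:**
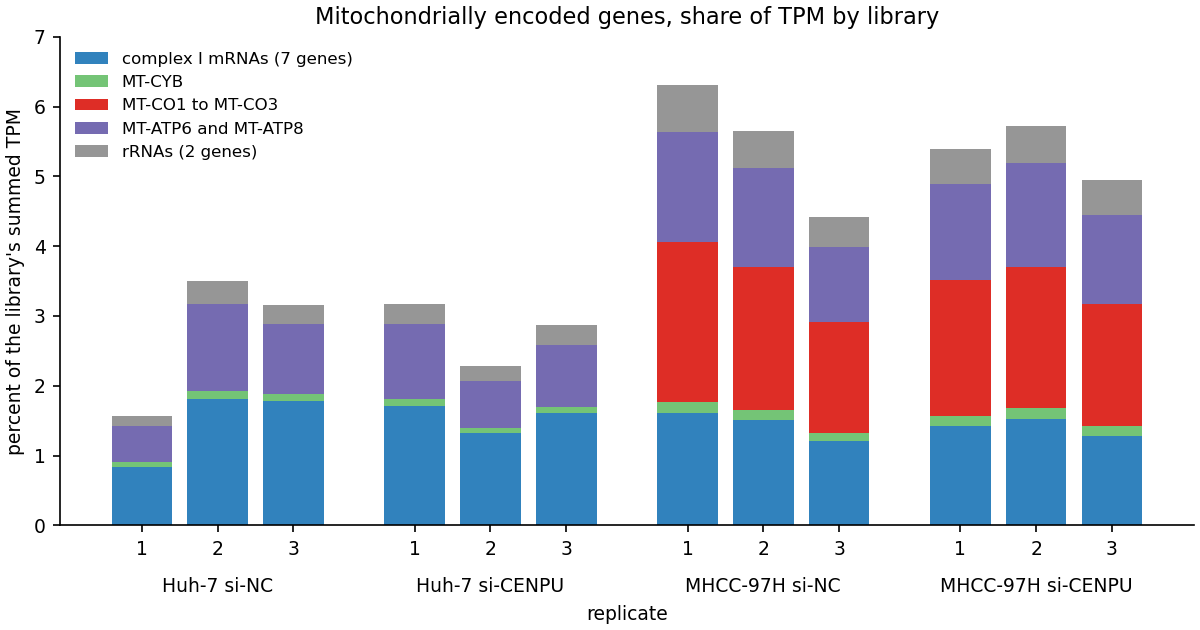
Share of the summed TPM of each library held by mitochondrial genes, in percent, split by complex and rRNA, with 1 stacked bar per library. Huh-7 libraries reach between 1.56% and 3.50% and hold almost nothing in the complex IV segment, while MHCC-97H libraries reach between 4.41% and 6.30%.

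The order of the members by level was similar in both lines apart from the CO genes. MT-ATP8, the small membrane subunit of ATP synthase, was the highest in both, with a median of 7239 TPM over the 6 Huh-7 libraries (3798 to 9593) and 10721 over the 6 MHCC-97H libraries (8509 to 12158). In Huh-7 it was followed by MT-ND3, MT-ND4L, MT-ATP6, MT-ND1, MT-ND4, MT-ND2, MT-RNR2, MT-RNR1, MT-CYB, MT-ND6 and MT-ND5. In MHCC-97H, MT-CO2, MT-CO3 and MT-CO1 came next, then MT-ND4L, MT-ND3, MT-ATP6, MT-RNR2, MT-RNR1, MT-ND1, MT-ND2, MT-ND4, MT-CYB, MT-ND5 and MT-ND6. Ranges of neighbours overlapped all along both orders, except between MT-CYB and MT-ND5 in MHCC-97H and between MT-ND5 and the near-zero MT-CO1 in Huh-7. MT-ATP8 and MT-ND4L, each shorter than the partner it overlaps, stood above that partner in 12 of 12 libraries. The ratio of MT-ATP8 to MT-ATP6 ran from 2.63 to 3.71 and that of MT-ND4L to MT-ND4 from 1.87 to 2.40. MT-ATP8 and MT-ATP6 are read from 1 mRNA, and MT-ND4L and MT-ND4 also share bases. Neither ratio is therefore taken as one of mRNA amounts, and the order given is one of deposited TPM only.

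**Figure D2:**
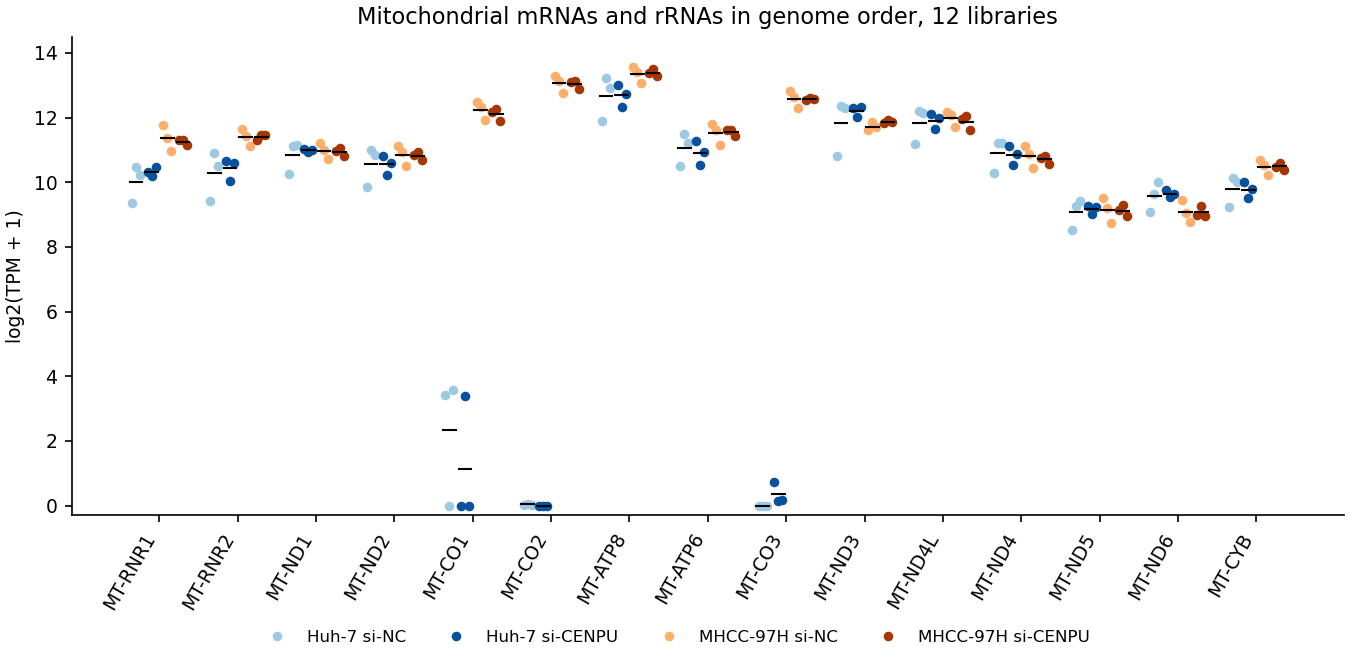
Level of the 13 mRNAs and 2 rRNAs in genome order, as log2(TPM + 1), with 1 point per library and a bar at the mean of each group of 3. MT-CO1, MT-CO2 and MT-CO3 lie far lower in Huh-7 than in MHCC-97H, MT-CO2 and MT-CO3 at or near 0 and MT-CO1 at up to 11.0 TPM, while the MHCC-97H points of MT-RNR1, MT-RNR2 and MT-CYB lie above every Huh-7 point.

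MT-CO1, MT-CO2 and MT-CO3 encode the catalytic core of cytochrome c oxidase, the enzyme that passes electrons to oxygen. MT-CO1 (chrM:5904-7445) was listed at 9.73, 0 and 11.0 TPM in Huh-7 si-NC replicates 1 to 3 and at 0, 9.42 and 0 in Huh-7 si-CENPU. The MHCC-97H values were 5711, 5089 and 3875 TPM with si-NC and 4661, 4907 and 3822 with si-CENPU. The lines lay far apart in every library.

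MT-CO2 (chrM:7586-8269) was listed at 0.01, 0.04 and 0.02 TPM in the Huh-7 controls and at 0 in their 3 si-CENPU counterparts. Its MHCC-97H levels were 10056, 9056 and 6936 TPM with si-NC and 8802, 8973 and 7571 with si-CENPU. MT-CO3 (chrM:9207-9990) was listed at 0 in the 3 Huh-7 controls and at 0.67, 0.10 and 0.13 TPM after si-CENPU. The 6 MHCC-97H libraries gave 7166, 6369 and 5011 TPM with si-NC and 5998, 6277 and 6121 with si-CENPU, so these genes were among the highest members there and at or near 0 in Huh-7.

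Neighbours on the same strand were at full level in Huh-7. MT-ATP8 and MT-ATP6 lie between MT-CO2 and MT-CO3 on the genome, MT-ATP6 shares 1 base with MT-CO3, and MT-ATP6 stood at 1443 to 2883 TPM in the 6 Huh-7 libraries. Because a value of 0 can be a failed estimate, no fold change is given for MT-CO1, MT-CO2 or MT-CO3. What lay behind their low Huh-7 values was not tested. Some nuclear genes used by every cell were also listed at or near 0 in Huh-7. COX7C, a nuclear-encoded subunit of complex IV, was listed at 0 to 0.21 TPM in Huh-7 and at 575 to 712 in MHCC-97H. SNRPB, a core protein of the spliceosome, was listed at 0.47 to 1.49 against 622 to 684 TPM, NHP2 at 0 to 0.14 against 592 to 689 and APRT at 0 to 1.27 against 852 to 979; these 3 were chosen after their values were seen. Of 239 genes with at least 500 TPM in every MHCC-97H library, 14 (5.86%) had every Huh-7 library under 1% of the lowest MHCC-97H library, and 3 of the 14 were MT-CO1 to MT-CO3. In the reverse direction 20 of 252 genes (7.94%) met the same rule, with 0 mitochondrial genes among them. Of 10 nuclear-encoded complex IV subunits, a list added after values were seen, 9 averaged at least 1 TPM in Huh-7 (summed 18050 to 20619 TPM) and 10 did in MHCC-97H (summed 14223 to 15686).

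The nuclear copies did not share 1 pattern with their originals. Of 29 listed copies, 16 were in the table and 5 averaged at least 1 TPM. MTCO1P12, the copy of MT-CO1, had 1827, 1618 and 2286 TPM in the Huh-7 controls and 2065, 1773 and 1768 after si-CENPU, where MT-CO1 itself was near 0. For MHCC-97H the values were 1230, 1160 and 1343 TPM with si-NC and 1133, 1420 and 1041 with si-CENPU, which is 21.5% to 34.6% of MT-CO1. It was lower in MHCC-97H in every library. The difference was -0.61 on the log2(TPM + 1) scale with si-NC (adjusted p = 0.00229, limma) and -0.65 with si-CENPU (adjusted p = 0.00154, limma). MT-CO1 and MTCO1P12 added together gave 1618 to 2297 TPM in Huh-7 and 4864 to 6941 in MHCC-97H, without overlap. Whether reads of MT-CO1 were counted for its copy was not tested. MTCO2P12, the copy of MT-CO2, reached at most 0.40 TPM and MTCO3P12, the copy of MT-CO3, at most 0.34 TPM in any library.

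MTATP6P1 followed MT-ATP6 in every library, at 9.49% to 11.2% of its level in all 12. MTND2P28 stood at 1.02% to 1.91% of MT-ND2. MTND1P23 took the opposite form from the CO genes: its Huh-7 levels were 213, 336 and 382 TPM with si-NC and 318, 269 and 262 with si-CENPU, and it was listed at 0 in all 6 MHCC-97H libraries, while MT-ND1 itself stood at 1221 to 2277 TPM in Huh-7 and 1677 to 2380 in MHCC-97H. MTND6P3, an 89.0% identical copy of MT-ND6, ran from 0.544% to 1.10% of MT-ND6.

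**Figure D3:**
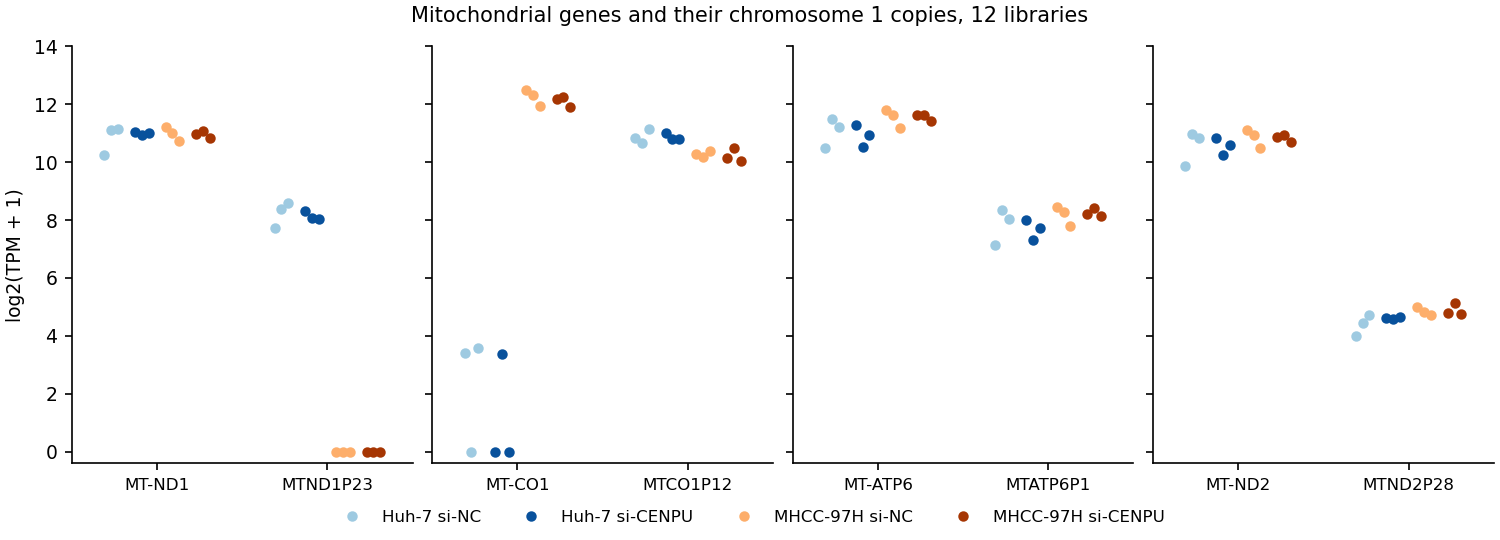
Level of MT-ND1, MT-CO1, MT-ATP6 and MT-ND2 beside their chromosome 1 copies, as log2(TPM + 1), with 1 point per library, coloured by group. MTCO1P12 lies between 1041 and 2286 TPM in both lines, whereas MT-CO1 is near 0 in Huh-7 and MTND1P23 is at 0 in MHCC-97H.

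The first comparison asked whether mitochondrial transcripts differed after si-CENPU. No member passed the test in either line. Differences were fitted with limma on log2(TPM + 1) over the 11088 genes with a mean of at least 1 TPM, and a gene was called at a Benjamini-Hochberg adjusted p below 0.05. In Huh-7, 0 of 15 members were called, beside 0.00902% of all tested genes, and 0 of 15 reached an unadjusted p below 0.05, which 507 genes reached in all. In MHCC-97H the count was again 0 of 15, beside 0.00902%, with 0 of 15 at an unadjusted p below 0.05 against 379 genes in all. MT-CO2 and MT-CO3 passed the filter on low values only through MHCC-97H. MT-CO1 averaged 5.02 TPM over the 6 Huh-7 libraries, with some of them at 0. Medians and counts below leave out these 3 CO genes and are over the other 12 members unless 15 are named.

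In Huh-7, 8 of these 12 members had a positive estimate and 4 a negative one, with a median of 0.06 beside 0.01 for all tested genes. The estimates ran from -0.15 for MT-ATP6 to 0.39 for MT-ND3, and the 95% intervals of the 12 spanned -0.71 to 1.09. In MHCC-97H, 4 were positive and 8 negative, with a median of -0.02 beside -0.05, estimates between -0.12 for MT-ND4L and 0.15 for MT-ND3, and intervals that spanned -0.68 to 0.85. The groups overlapped for all 12 members in both lines, whereas they did not for 7.65% of all tested genes in Huh-7 and 6.95% in MHCC-97H.

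MT-ND3, a small membrane subunit of complex I, had the largest estimate in both lines. Huh-7 libraries held 1801, 5295 and 5007 TPM with si-NC and 5036, 4133 and 5178 with si-CENPU. MHCC-97H libraries held 3135, 3692 and 3338 TPM with si-NC and 3664, 3892 and 3730 with si-CENPU. The groups overlapped in each line. The estimates were 0.39 (SE 0.318, adjusted p = 1, limma) in Huh-7 and 0.15 (SE 0.318, adjusted p = 1, limma) in MHCC-97H. Its share of the 10 mRNAs other than the CO genes was 15.6% ± 2.56 in Huh-7 si-NC (12.6% to 17.4%) and 19.2% ± 1.52 in Huh-7 si-CENPU (17.5% to 20.1%), and 11.8% ± 2.26 and 12.9% ± 0.878 in MHCC-97H (n = 3 each).

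The sign of the estimates rested on single libraries. Without Huh-7 si-NC replicate 1, all 12 members had negative estimates, from -0.43 for MT-ATP6 to -0.02 for MT-RNR1, with a median of -0.27 beside -0.07 for all tested genes, and 0 were called. MT-ND3 then stood at -0.11 and MT-RNR1, the small rRNA, went from 0.31 to -0.02. Without Huh-7 si-NC replicate 2 all 12 were positive, from 0.06 to 0.66, and without Huh-7 si-CENPU replicate 2 they ran from 0.04 to 0.49. In MHCC-97H the median of the 12 went from -0.02 to -0.17 without si-NC replicate 3 and to 0.11 without si-NC replicate 1. None of these fits called a member.

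**Figure D4:**
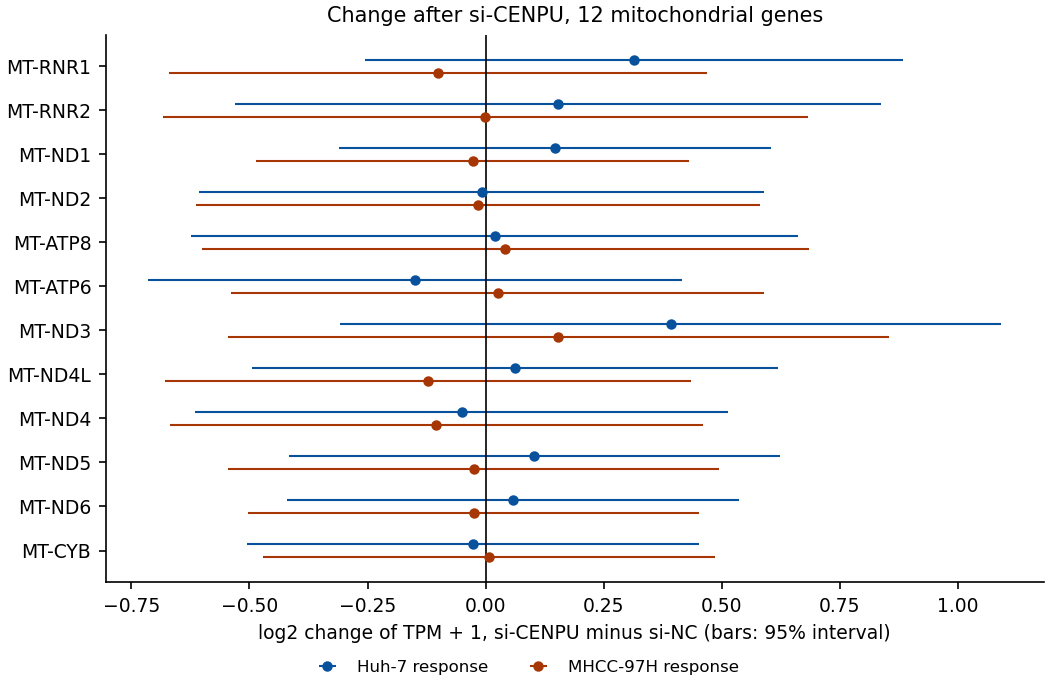
Difference between si-CENPU and si-NC on the log2(TPM + 1) scale for 12 mitochondrial genes in each line, with 95% intervals from the limma fit. Every interval crosses 0, with estimates between -0.15 and 0.39 in Huh-7 and between -0.12 and 0.15 in MHCC-97H.

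The difference of the 2 responses was tested in the same fit, as MHCC-97H minus Huh-7. It called 0 of 15 members, beside 0.00902% of all tested genes, and 0 of 15 members reached an unadjusted p below 0.05, against 383 genes in all. Over the 12 members it ran from -0.41 for MT-RNR1 to 0.17 for MT-ATP6, with a median of -0.11 beside -0.07 for all genes, and the 95% intervals spanned -1.23 to 0.97.

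The second comparison set MHCC-97H against Huh-7, apart in si-NC and in si-CENPU libraries, which are different samples. Both rRNAs and MT-CYB were higher in MHCC-97H in both sets, and MT-ND6 was lower in the si-CENPU set. On a scale that centres the lines on each other, MT-RNR1 was the only one of the 12 called higher, with si-NC. On that scale 6 of 7 complex I mRNAs, MT-ND6 among them, were called lower in each set. Of all 11088 tested genes, 3760 were called higher and 3851 lower on it with si-NC, and 3722 and 3806 with si-CENPU. On the deposited scale 3 of the 12 members were called with si-NC, beside 73% of all tested genes. These were 3 higher, beside 50.1%, and 0 lower, beside 22.9%. With si-CENPU 5 were called, beside 70.1%: 4 higher, beside 46.2%, and 1 lower, beside 23.9%. The libraries of the lines did not overlap for 3 of 12 members higher in MHCC-97H with si-NC, beside 49.6% of all genes, and for 5 higher and 2 lower with si-CENPU, beside 49.3% and 25.4%. The median of the 12 was 0.21 with si-NC and 0.12 with si-CENPU, beside all-gene medians of 0.49 and 0.40. Which median was higher depended on the filter and the pseudocount: with no filter the all-gene medians were 0.01 and 0.01, below those of the 12, and with a pseudocount of 10 they were 0.16 and 0.13, beside 0.21 and 0.12. Since the median of the tested genes was shifted towards MHCC-97H, the members' differences are also given relative to it below.

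The 12S rRNA, MT-RNR1 (chrM:648-1601), forms the small subunit of the mitochondrial ribosome. Its level in Huh-7 was 654, 1418 and 1194 TPM with si-NC and 1286, 1164 and 1420 with si-CENPU. Its level in MHCC-97H was 3462, 2615 and 1981 TPM with si-NC and 2542, 2511 and 2282 with si-CENPU. All 6 MHCC-97H libraries lay above all 6 Huh-7 libraries. The difference was 1.34 (SE 0.259, adjusted p = 0.0006735, limma) with si-NC and 0.92 (SE 0.259, adjusted p = 0.00763, limma) with si-CENPU. Relative to the median gene these are 0.84 and 0.52. With trimmed-mean scaling, which centres the lines on each other, MT-RNR1 was called with si-NC at 0.70 (adjusted p = 0.00323, limma) and not with si-CENPU at 0.41 (adjusted p = 0.0515, limma).

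The 16S rRNA, MT-RNR2 (chrM:1671-3229), forms the large subunit. Controls of Huh-7 gave 685, 1909 and 1445 TPM, and its si-CENPU libraries 1598, 1048 and 1552. Controls of MHCC-97H gave 3186, 2766 and 2232 TPM, and its si-CENPU libraries 2516, 2801 and 2789. The lines again did not overlap. The difference was 1.13 (SE 0.310, adjusted p = 0.00661, limma) and 0.97 (SE 0.310, adjusted p = 0.0154, limma), or 0.63 and 0.57 relative to the median gene. With trimmed-mean scaling it was 0.49 and 0.46 and not called (adjusted p = 0.0772 and 0.0980, limma). The ratio of MT-RNR2 to MT-RNR1 lay between 0.901 and 1.35 in the 12 libraries, so the rRNAs kept near-equal levels in both lines.

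MT-CYB (chrM:14747-15887) encodes cytochrome b, the only mitochondrially encoded subunit of complex III. The Huh-7 levels were 603, 1127 and 1025 TPM with si-NC and 1030, 725 and 883 with si-CENPU. The MHCC-97H levels were 1650, 1477 and 1192 TPM with si-NC and 1422, 1552 and 1336 with si-CENPU, above every Huh-7 library. The difference was 0.69 (SE 0.217, adjusted p = 0.0140, limma) and 0.72 (SE 0.217, adjusted p = 0.0115, limma). Relative to the median gene it was 0.19 and 0.32, and with trimmed-mean scaling it was 0.05 and 0.20 and not called.

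MT-ATP6 and MT-ATP8, the membrane subunits of ATP synthase, had similar estimates. MT-ATP6 had 2230 ± 730 TPM with si-NC and 1975 ± 503 with si-CENPU in Huh-7, and 3004 ± 643 and 3014 ± 237 in MHCC-97H (SD, n = 3 each). It was called with si-CENPU, at 0.64 (SE 0.256, adjusted p = 0.0435, limma), and not with si-NC, at 0.46 (adjusted p = 0.123, limma). MT-ATP8 stood at 7018 ± 2951 and 6744 ± 1544 TPM in Huh-7 and at 10523 ± 1854 and 10738 ± 900 in MHCC-97H (SD, n = 3 each). Its differences of 0.67 and 0.69 did not pass the test (adjusted p = 0.0568 and 0.0520, limma). Relative to the median gene the differences were -0.03 and 0.24 for MT-ATP6 and 0.18 and 0.29 for MT-ATP8. With trimmed-mean scaling neither gene was called in either set, and the si-NC estimate of MT-ATP6 was negative at -0.17.

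The complex I mRNAs had lower estimates than the median of the tested genes, though not under every setting. The 7 differences ran from -0.49 for MT-ND6 to 0.28 for MT-ND2 with si-NC and from -0.57 for MT-ND6 to 0.28 for MT-ND2 with si-CENPU, and 7 of 7 lay below the all-gene median in both sets. With no filter 3 of 7 (si-NC) and 6 of 7 (si-CENPU) did, and with a pseudocount of 10 the count was 6 of 7 in each set. It was also 6 of 7 with si-CENPU without Huh-7 si-CENPU replicate 1. Relative to that median they ran from -0.99 to -0.21 and from -0.98 to -0.13. As deposited, 0 were called with si-NC and 1, MT-ND6, with si-CENPU. With trimmed-mean scaling, 6 of 7 were called lower in each set, all but MT-ND2.

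MT-ND6 (chrM:14149-14673) is the complex I subunit transcribed from the opposite strand. Huh-7 controls held 542, 799 and 1038 TPM and Huh-7 libraries with si-CENPU held 863, 740 and 794. MHCC-97H controls held 691, 532 and 439 TPM and MHCC-97H libraries with si-CENPU held 509, 610 and 494. The lines overlapped with si-NC and did not with si-CENPU. The difference was -0.49 (SE 0.217, adjusted p = 0.0603, limma) with si-NC and -0.57 (SE 0.217, adjusted p = 0.0338, limma) with si-CENPU. With trimmed-mean scaling it was -1.13 (adjusted p = 4.116e-05, limma) and -1.09 (adjusted p = 5.485e-05, limma).

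MT-ND5 (chrM:12337-14148) lies next to MT-ND6 and is transcribed from the other strand, and its group means were close, at 556 ± 170 and 578 ± 56.2 TPM in Huh-7 and 580 ± 149 and 559 ± 64.9 in MHCC-97H (SD, n = 3 each). The line difference was 0.08 with si-NC (95% interval -0.44 to 0.60) and -0.05 with si-CENPU (-0.57 to 0.47), or -0.42 and -0.45 relative to the median gene. The ratio of MT-ND6 to MT-ND5 ran from 1.29 to 1.52 in the 6 Huh-7 libraries and from 0.900 to 1.03 in the 6 MHCC-97H libraries, without overlap.  The ratio of MT-CYB to MT-ND5 moved the other way, from 1.41 to 1.82 in Huh-7 and from 2.28 to 2.80 in MHCC-97H. The annotation places MT-ND6 and MT-ND5 end to end, and no source used here gives the strand setting of the counting, so reads from the opposite strand of either gene cannot be told apart from its own.

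The remaining complex I members, MT-ND1, MT-ND2, MT-ND4 and MT-ND4L, had group means of 1904 to 2033, 1521 to 1863, 1683 to 1998 and 3770 to 4110 TPM across the 4 groups, with ranges of the lines that overlapped in both sets. Their line differences lay between -0.14 and 0.28 and none was called. MT-ND3 stood lower in each MHCC-97H si-CENPU library (3664 to 3892 TPM) than in each Huh-7 si-CENPU library (4133 to 5178), yet its difference of -0.34 was not called (SE 0.318, adjusted p = 0.357, limma).

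Scaling to the 12 members themselves, an alternative chosen after seeing the data, compares members with each other. It uses their summed TPM, of which MT-ATP8 is the largest part. MT-RNR1 was then higher in MHCC-97H by 0.92 with si-NC (adjusted p = 0.000832, limma) and by 0.60 with si-CENPU (adjusted p = 0.0126, limma). MT-RNR2 was higher by 0.71 (adjusted p = 0.00435, limma) and 0.65 (adjusted p = 0.00771, limma). MT-ND6 was lower at -0.91 (adjusted p = 0.00214, limma) and -0.90 (adjusted p = 0.00237, limma), and MT-ND4 at -0.50 (adjusted p = 0.0216, limma) and -0.46 (adjusted p = 0.0319, limma). MT-ND3 was lower with si-CENPU, at -0.66 (adjusted p = 0.0172, limma), and at -0.52 with si-NC (adjusted p = 0.0504, limma). MT-CYB was not called, at 0.27 and 0.40.

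Shares of the 10 mRNAs other than the CO genes compare these mRNAs with each other within a library. MT-ATP8 held 27.9% ± 2.13 and 26.7% ± 1.78 of them in Huh-7 and 35.8% ± 0.530 and 36.7% ± 0.641 in MHCC-97H. MT-ND6 held 3.31% ± 0.688 and 3.22% ± 0.322 against 1.88% ± 0.172 and 1.83% ± 0.0957. MT-CYB held 3.78% ± 0.388 and 3.51% ± 0.0713 against 4.91% ± 0.0715 and 4.91% ± 0.0646. For these 3 members the ranges of the lines did not overlap. Huh-7 si-NC replicate 1, lowest in level for all 12 members, is included in these shares. MT-ATP8 is counted in them apart from MT-ATP6, though both are read from 1 mRNA. It held the largest share, so its level weighs on the shares of the others.

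**Figure D5:**
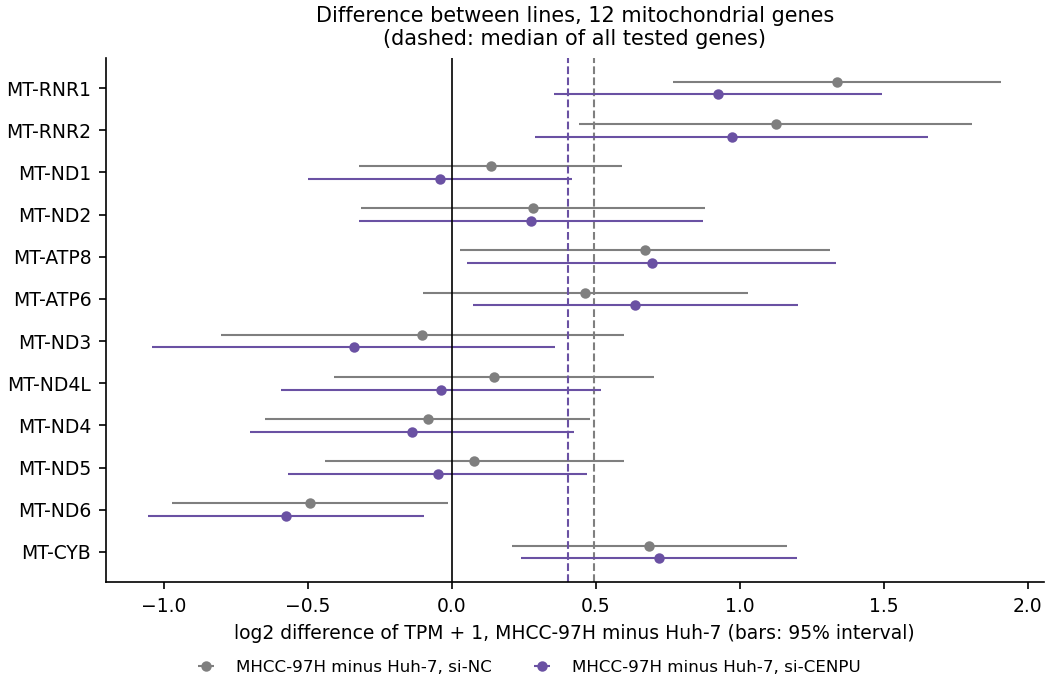
Difference between MHCC-97H and Huh-7 on the log2(TPM + 1) scale for 12 mitochondrial genes, in si-NC and in si-CENPU libraries, with 95% intervals from the limma fit and dashed lines at the all-gene medians of 0.49 and 0.40. MT-RNR1 and MT-RNR2 lie to the right of both dashed lines and the 7 complex I genes to the left.

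Single libraries decided several of these calls. Without Huh-7 si-NC replicate 1 the si-NC differences of MT-RNR1, MT-RNR2 and MT-CYB fell to 1.01, 0.70 and 0.41 and all 3 were still called (adjusted p = 0.000911, 0.0107 and 0.0430, limma), and MT-ND3 and MT-ND6 became called lower at -0.61 and -0.74 (adjusted p = 0.000423 and 0.00446, limma). Without MHCC-97H si-NC replicate 1, MT-CYB was not called (0.58, adjusted p = 0.0574, limma). Without Huh-7 si-CENPU replicate 2, MT-RNR2, MT-CYB, MT-ATP6 and MT-ND6 lost their calls in the si-CENPU set, at 0.78, 0.59, 0.45 and -0.63 (adjusted p = 0.0668, 0.0515, 0.169 and 0.0503, limma), and MT-RNR1 kept its call at 0.85 (adjusted p = 0.0295, limma).

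Nuclear genes that replicate, transcribe, process and translate the mitochondrial genome were described from lists written with earlier results of these data known. After si-CENPU, 0 tested members of any of these 7 lists were called in either line with limma. At an unadjusted p below 0.05 (limma), 507 of all 11088 tested genes were counted in Huh-7 and 379 in MHCC-97H. Beside these, the counts for Huh-7 and MHCC-97H were 4 and 1 of 50 large-subunit proteins, 2 and 1 of 30 processing genes and 2 and 0 of 6 biogenesis regulators. They were 1 and 0 of 11 translation factors and 0 and 2 of 32 small-subunit proteins, and 0 in the replication and transcription lists. In the line comparison most calls were towards MHCC-97H, as they were for all tested genes (50.1% higher and 22.9% lower with si-NC, 46.2% and 23.9% with si-CENPU). With trimmed-mean scaling, whose counts follow each list, 3760 of the 11088 genes were called higher and 3851 lower with si-NC, and 3722 and 3806 with si-CENPU. For replication and packaging, 7 of 11 tested genes were called higher and 1 lower in both sets, with medians of 0.73 and 0.82. TFAM, which packages the genome and starts its transcription, stood at 0.797 ± 0.255 and 0.857 ± 0.395 TPM in Huh-7 and at 5.83 ± 1.93 and 5.13 ± 0.960 in MHCC-97H (SD, n = 3 each). It was higher by 1.90 (SE 0.233) with si-NC and by 1.73 (SE 0.233) with si-CENPU. TOP1MT, the mitochondrial type I topoisomerase, was higher by 1.53 and 1.40, and SSBP1, the mitochondrial single-strand DNA-binding protein, by 1.41 and 1.28. These 3 genes remained called higher with trimmed-mean scaling, and the list then had 4 higher and 1 lower in each set.

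For transcription, 6 of 9 tested genes were called higher and 1 lower in both sets, with medians of 0.42 and 0.51. POLRMT, the mitochondrial RNA polymerase, stood at 71.6 ± 7.30 and 61.2 ± 3.66 TPM in Huh-7 and at 93.4 ± 6.82 and 101 ± 8.41 in MHCC-97H (SD, n = 3 each), a difference of 0.72 with si-CENPU (SE 0.101) that fell to 0.21 and was not called with trimmed-mean scaling (adjusted p = 0.320, limma). MTERF1, which binds near the end of MT-RNR2 and can stop transcription there, was the lower one, at -1.24 with si-NC (SE 0.258, adjusted p = 0.00111, limma), with 2.65 ± 1.37 TPM in Huh-7 and 0.480 ± 0.182 in MHCC-97H (SD, n = 3 each). With trimmed-mean scaling the list had 3 called higher and 2 lower with si-NC and 2 and 2 with si-CENPU, and its si-NC median turned negative, at -0.22.

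For RNA processing, modification and stability, 22 of 30 tested genes were called higher with si-NC and 19 with si-CENPU, and 0 lower, with medians of 0.81 and 0.59. HSD17B10, a subunit of the mitochondrial RNase P that cuts tRNAs out of the precursor, was higher by 1.14 (SE 0.0634) and 0.98 (SE 0.0634). SUPV3L1, the helicase of the mitochondrial degradosome, was higher by 1.89 and 1.73, TRUB2, a pseudouridine synthase, by 1.60 and 1.36 and FASTKD3, an RNA-binding protein of the FASTK family, by 1.82 and 1.72. These 4 genes remained called with trimmed-mean scaling, under which the list had 11 higher and 3 lower in each set. After si-CENPU in Huh-7 the smallest p in this list was that of FASTK, at -0.26 (unadjusted p = 0.00614, adjusted p = 0.831, limma), and in MHCC-97H that of ANGEL2, at -0.49 (unadjusted p = 0.0308, limma), and neither was called.

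Genes of translation were counted in 3 lists, which were not tested against each other. Of 11 tested translation factors, 10 were called higher with si-NC and 8 with si-CENPU, and 0 lower. MRRF, the ribosome recycling factor, was higher by 2.52 and 2.79 (SE 0.195 each), and GFM1, an elongation factor, by 1.85 and 1.89. With trimmed-mean scaling the factors had 6 called higher and 1 lower in each set. Among the proteins of the mitochondrial ribosome the directions were mixed. For the small subunit, 18 of 32 were called higher and 4 lower with si-NC, and 12 and 5 with si-CENPU. MRPS6 was higher by 2.55 and 2.37, and MRPS26 lower at -0.90 and -0.93. For the large subunit, 23 of 50 were called higher and 13 lower with si-NC, and 16 and 15 with si-CENPU. MRPL11 stood lower at -2.14 and -2.37 and MRPL52 at -2.03 and -1.96. With trimmed-mean scaling, which moved all genes towards Huh-7 as given above, the counts were 5 higher and 8 lower (si-NC) and 5 and 9 (si-CENPU) for the small subunit and 10 and 20 and 7 and 22 for the large one, and these 4 named genes kept their directions and calls. The medians of the large subunit list were 0.38 and 0.10, beside all-gene medians of 0.49 and 0.40.

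Of 6 tested regulators of mitochondrial biogenesis, 6 were called higher with si-NC, beside 50.1% of all genes, and 5 with si-CENPU, beside 46.2%, and 0 lower. ESRRA, a nuclear receptor that drives genes of oxidative metabolism, was higher by 0.89 and 1.16 (SE 0.0827 each), and YY1, a zinc-finger transcription factor, by 1.46 and 1.73. With trimmed-mean scaling 3 and 5 of the 6 were called higher, and ESRRA was not called with si-NC (0.26, adjusted p = 0.215, limma).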

How the data were processed

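Expression was read from a table of TPM made by the authors and deposited with 1 column per sample, using HISAT2 and StringTie and the build GRCh38.p13, per the submitters' processing notes. No source used here gives the annotation release, the strand setting or the treatment of multiply mapped reads. Groups and replicate numbers came from the sample titles, and 60447 of 60664 Ensembl identifiers had a symbol. Library sums were 998416 to 999065 TPM. Values were put on the log2(TPM + 1) scale, which understates changes of low genes, and the 11088 genes with a mean of at least 1 TPM were fitted over all 12 libraries with 1 mean per group, in limma 3.58.1 (R 4.3.3) with a mean-variance trend. P-values are two-sided, adjusted by Benjamini-Hochberg over all tested genes. The code was tested on simulated data. Coordinates and sequences came from GENCODE release 29, and copies were aligned with Biopython 1.88.

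Members, gene lists, tests and alternatives were chosen with earlier results of these data known. All 37 members are accounted for. From each other list, called members with the smallest adjusted p (at most 4 per contrast) were eligible to be named, or the 1 member with the smallest p where none was called, and of these the text describes examples.

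Alternatives were a pseudocount of 0.1 or 10, a mean of at least 5 TPM or no filter, trimmed-mean scaling, rescaling without mitochondrial genes, a replicate block, only the groups compared, no variance trend and leaving out each library. Scaling to the 12 members and the share without the CO genes were added after seeing the data.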

Additional observations from a re-analysis of the deposited data

How the results depend on the processing

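The sign of a line difference depends on scaling. With trimmed-mean scaling the si-NC count of called members went from 6 to 10 of 15, which include MT-CO1 to MT-CO3 in both; over the other 12 it went from 3, all higher, to 7, 1 higher and 6 lower. Among members called under it with si-NC, MT-ND5 (-0.56), MT-ND1 (-0.50) and MT-ND4L (-0.49) turned from positive to negative. MT-ND2 and MT-ATP6 also turned negative and were not called. That scaling moved the all-gene median with si-NC from 0.49 to 0.00458. Among all called genes, the part called higher went from 68.6% to 49.4% with si-NC and from 65.9% to 49.4% with si-CENPU. Leaving out 1 library gave 3 to 5 calls over the 12 with si-NC (3 with all libraries). With si-CENPU it gave 1 to 7 (5 with all libraries), and the 1, MT-RNR1, was without Huh-7 si-CENPU replicate 2. With the 3 CO genes these counts are 6 to 8 and 4 to 10. The 7 and the 10 came without Huh-7 si-NC replicate 1, a library outside the si-CENPU comparison. Leaving it out moved the spread behind those tests and not the estimates. The share difference between lines was 2.72 percentage points with si-NC and 2.58 with si-CENPU, and became 5.11 and 5.19 with a denominator without the 100 most abundant other genes, and 0.741 and 0.670 without MT-CO1 to MT-CO3. Leaving out 1 library kept it between 2.13 and 3.24 with si-NC and between 2.33 and 2.78 with si-CENPU. The difference in share after si-CENPU ran from -0.55 to 0.42 percentage points in Huh-7 (0.0402 with all libraries) and from -0.62 to 0.32 in MHCC-97H (-0.101), so neither sign was stable.

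Over 22 settings MT-RNR1 was called in 22 with si-NC and 21 with si-CENPU, MT-RNR2 in 21 and 20, MT-CYB in 18 and 19, MT-ND6 in 4 and 14, MT-ATP6 in 1 and 10 and MT-ATP8 in 3 and 5. These settings include leaving out libraries outside the groups compared, which can change a call but not an estimate. After si-CENPU 0 members were called under any setting run, in either line or in the difference between lines. The difference of responses has no fit with only the groups compared, since it uses all 4 groups.

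Replicate numbers are shared by the groups. Correlations between si-NC and si-CENPU libraries were taken on deviations of each gene from its group mean, not on levels. Same-numbered libraries correlated at -0.0324, -0.0907 and 0.0284 in Huh-7 and at -0.0326, -0.0914 and 0.134 in MHCC-97H. Different-numbered libraries ran from -0.104 to 0.139 in Huh-7 and from -0.116 to 0.157 in MHCC-97H. With 3 libraries per group these values cannot tell whether the numbers mark pairs. With the number as a block, 0 members were called after si-CENPU in either line or in the difference. Over the 12 it gave 3 calls in the si-NC line comparison and 3 rather than 5 in the si-CENPU one (6 and 6 with the CO genes), where MT-ATP6 (adjusted p = 0.0664) and MT-ND6 (adjusted p = 0.0575, limma) lost their calls. TPM keeps no depth, so depth limits cannot be stated.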
